A study of Mus musculus with 3 samples.

Results

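The genes described here encode 9 neutral amino acid transporters of the SLC38, SLC1, SLC6 and SLC36 families, out of 21887 protein-coding genes on the nuclear chromosomes. They are Slc38a1, Slc38a2, Slc38a4, Slc38a7, Slc1a4, Slc1a5, Slc6a9, Slc36a1 and Slc36a4. Peaks were taken as theirs when they overlapped the RefSeq span of the gene (mm10) or the 20 kb on either side. The data are chromatin immunoprecipitation sequencing (ChIP-seq) peak lists for ATF4 and CEBPG, a pair of bZIP (basic leucine zipper) transcription factors, in mouse embryonic fibroblasts. The cells were wild type, of the C57BL/6 strain, isolated from embryos at E13.5, and every library came from cells deprived of amino acids (AAD medium) for 3 hours, so no fed cells are compared. The ATF4 library was made with a commercial ATF4 antibody (C-20), the CEBPG library with an antiserum to the CEBPG C-terminus, and a GFP antibody library was not analysed here. With 1 library per antibody there is no spread between cultures, no test was run, and the values describe these libraries. The lists hold 2642 ATF4 peaks and 25419 CEBPG peaks, at library depths that are not known. Peak lists hold no expression values, so the cell type was not checked against marker genes.

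Neutral amino acid transporters move alanine, serine, glutamine, glycine and related amino acids across the plasma membrane, and some of them work on lysosomes. When amino acids run short, the kinase GCN2 phosphorylates the initiation factor eIF2, translation of ATF4 rises, and ATF4 turns on genes for amino acid uptake and synthesis. ATF4 binds DNA as a dimer with C/EBP family proteins such as CEBPG, at composite sites known as C/EBP-ATF response elements (CARE). Slc38a2 is a textbook gene of this response, since its product, the transporter SNAT2, is made in greater amounts in amino acid starved cells.

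At these genes CEBPG peaks were often strong and were found at a larger share of the 9 genes than of all genes. The ATF4 peaks were few and weak. A CEBPG peak lay in the window of 8 of the 9 genes, against 43.7% of all protein-coding genes (9559). An ATF4 peak lay in the window of 2 of the 9, Slc38a2 and Slc1a4, against 7.44% of all protein-coding genes (1628). These 2 genes are too few to mark a difference from that share, and with peaks of 50 or more the count was 0. The peaks of both factors overlapped at 0 of the 9 genes, against 1.78% of all genes (390). With 9 genes this count is close to that share. The 2 ATF4 peaks scored 42.46 and 40.87, below the median of 45.88 of their list, whereas the 9 CEBPG peaks had a median score of 227.42, against 47.24 over their list. Scores are the authors' values and rank peaks within a list only. The 9 genes were chosen with earlier results of these data known, so the shares here and below are descriptions.

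**Figure D1:**
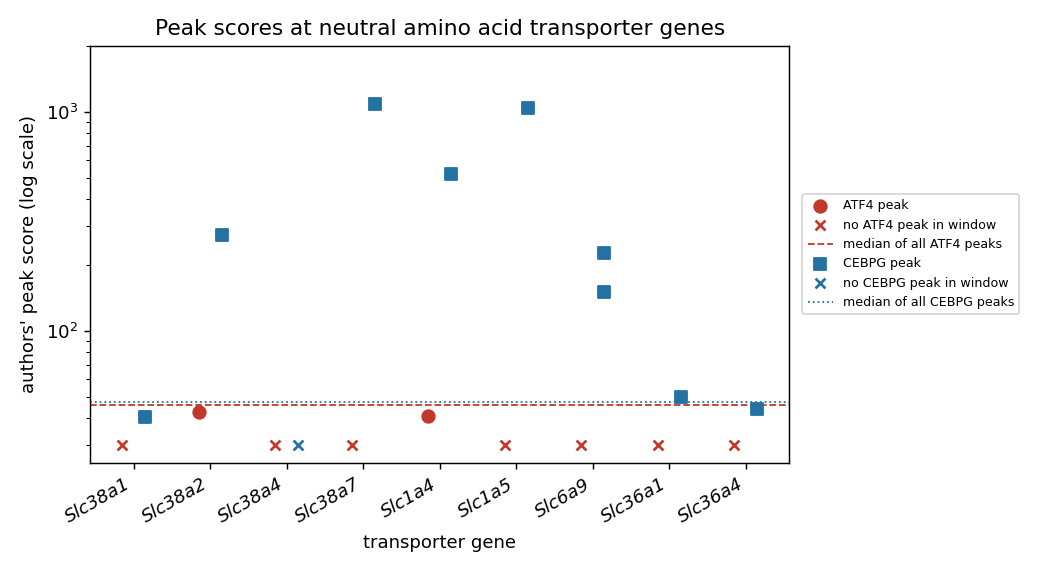
The authors' score of each peak (vertical log axis) in the window of each transporter gene (horizontal axis), with ATF4 as circles and CEBPG as squares; crosses mark genes with no peak, and lines the median score of each whole list. Slc38a7, Slc1a5 and Slc1a4 carried CEBPG peaks of 1083.45, 1043.53 and 520.72, and both ATF4 peaks lay under the ATF4 median.

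The CEBPG result was one of strength more than of presence. A CEBPG peak scoring 200 or more was found at 5 of the 9 genes (Slc38a7, Slc1a5, Slc1a4, Slc38a2 and Slc6a9), against 6.52% of all protein-coding genes (1428). The same 5 genes made up the count at 100 or more, which 10.9% of all genes reached. A score of 500 or more was reached at 3 of the 9, against 2.75% of all genes, and 1000 or more at 2 of the 9, against 1.3%. Long genes have longer windows and so more room for peaks. Among the 9342 genes whose span lies within the range of the transporters (12.3 to 72.0 kb), 6.1% had a CEBPG peak of 200 or more, 45.3% any CEBPG peak, 5.93% any ATF4 peak and 1.67% an overlapping pair. The transporters thus fell into a group of 5 with CEBPG scores from 227.42 to 1083.45, a group of 3 with scores from 40.27 to 49.8 close to the floor of the list (40), and Slc38a4 with no peak.

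**Figure D2:**
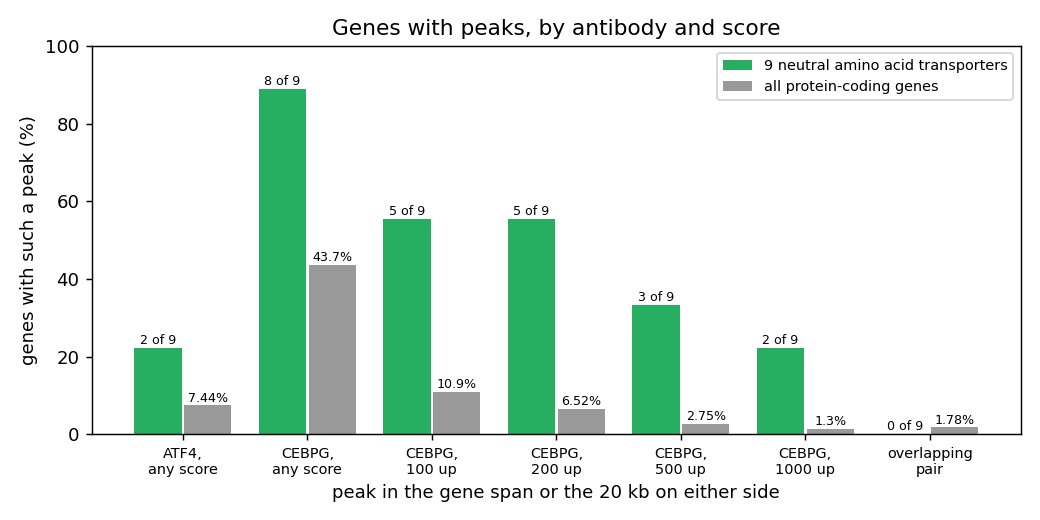
Percentage of genes with a peak in the span or the 20 kb on either side (vertical axis), for the 9 transporters and for all protein-coding genes, by antibody and minimum CEBPG score (horizontal axis). At CEBPG scores of 200 or more, 5 of 9 transporters had a peak, against 6.52% of all genes. An overlapping pair of ATF4 and CEBPG peaks was found at 0 of 9, close to the 1.78% of all genes.

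Slc38a2 encodes SNAT2, a sodium-coupled transporter of alanine, glutamine and other small neutral amino acids. It spans 12.3 kb on chromosome 15 (96687392 to 96699728) and is transcribed towards lower coordinates. Its CEBPG peak (96698976 to 96699357, score 274.94, rank 1250 of 25419) lay inside the gene, 371 to 752 bp downstream of the listed start. In the human gene an amino acid response element is known from the first intron. Introns could not be assigned here, and whether the mouse peak lies on such an element was not tested. The ATF4 peak of Slc38a2 was at the other end of the gene (96687661 to 96687771, score 42.46, rank 1987 of 2642). It was 111 bp wide, lay 269 bp inside the lower-coordinate end, and was 11205 bp from the CEBPG peak. Both factors thus had a peak inside the gene, CEBPG downstream of the start and ATF4 near the far end.

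The other SLC38 genes differed widely. Slc38a1, encoding SNAT1, a glutamine and alanine transporter of the same sodium-coupled type, spans 72.0 kb on chromosome 15 (96571418 to 96643438). It had 1 CEBPG peak, 3762 bp outside its lower-coordinate end, which scored 40.27 and ranked 24642 of 25419. It had no ATF4 peak in the window. Slc38a4, encoding SNAT4, a transporter best known from liver and placenta, spans 61.1 kb on the same chromosome (96994816 to 97055956) and had no peak of either factor. Its nearest ATF4 and CEBPG peaks were weak (44.48 and 41.08) and lay 106 kb and 105 kb away. Slc38a1 and Slc38a2 are neighbours, 43953 bp apart, and Slc38a4 lies 295 kb beyond Slc38a2, yet of these 3 genes only Slc38a2 had a CEBPG peak above 50.

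Slc38a7 had the highest score of the 9 genes. It encodes SNAT7, which exports glutamine and asparagine from lysosomes. The CEBPG peak lay on chromosome 8 at 95852049 to 95852819, inside the gene and 672 to 1442 bp downstream of the listed start. Its score of 1083.45 ranked 268 of 25419, so that 1.05% of the list scored as high, and it was 771 bp wide, the widest of the 9 CEBPG peaks. The window of Got2, the gene of mitochondrial aspartate aminotransferase, also held this peak, but Slc38a7 was the nearest protein-coding gene. No ATF4 peak lay within 147 kb of the Slc38a7 span.

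The SLC1 exchangers both carried strong CEBPG peaks. Slc1a5 encodes ASCT2, a major glutamine carrier of growing cells. Its CEBPG peak (chromosome 7, 16784565 to 16785048) lay inside the gene, 3231 bp from the lower-coordinate end, with a score of 1043.53 (rank 279). It had no ATF4 peak in the window. The nearest one beyond it was strong (182.53) and lay on a CEBPG peak of 2002.15, but it was 190 kb away. Slc1a4 encodes ASCT1, which exchanges alanine, serine, cysteine and threonine. Its CEBPG peak (chromosome 11, 20332466 to 20333044, score 520.72, rank 626) covered the start of the gene, from 331 bp upstream to 247 bp downstream. The ATF4 peak of Slc1a4 (20340917 to 20341042, score 40.87, rank 2394 of 2642) lay 8204 bp upstream, outside the gene, and 7873 bp from the CEBPG peak. In the ATF4 list 91.2% of peaks scored at least as high.

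The start of Slc1a4 is shown because the CEBPG peak covers all 300 bases of it and because it holds the single CARE-like match among the transporter promoters. The letters searched were TGATGNAA on both strands, and the RefSeq promoters used (GRCm38.p6, the build of mm10) run from 250 bases before a listed start to 50 after it. In the direction of transcription the match reads TTGCATCA, which is TGATGCAA on the opposite strand, and it spans the start itself, from 4 bp before it to 3 bp after it (chromosome 11, 20332710 to 20332717). Capitals mark the match.

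Slc1a4 promoter (minus strand, chr11:20332664-20332963): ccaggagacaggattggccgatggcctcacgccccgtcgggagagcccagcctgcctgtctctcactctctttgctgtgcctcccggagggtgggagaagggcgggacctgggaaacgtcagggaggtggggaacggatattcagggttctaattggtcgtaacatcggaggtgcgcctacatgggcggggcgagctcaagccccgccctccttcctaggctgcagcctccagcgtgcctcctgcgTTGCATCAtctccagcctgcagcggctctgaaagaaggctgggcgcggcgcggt

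Of 32841 RefSeq promoters of this length, from genes of all kinds, 1303 (3.97%) held a CARE-like match. The share was 22.2% among the 410 promoters overlapped by a CEBPG peak and 41.7% among the 48 overlapped by an ATF4 peak. Most matches carried no peak, since 6.98% of the promoters with a CARE-like match were overlapped by CEBPG. A match is thus a description of the letters and does not show where the proteins bound.

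Slc6a9 encodes GlyT1, which takes up glycine with sodium and chloride. It had 2 CEBPG peaks close to its upstream start and no ATF4 peak in its window, the nearest lying 678 kb away. The stronger peak (chromosome 4, 117835235 to 117835678, score 227.42, rank 1490) ran from 23 bp upstream to 420 bp downstream of that start. The weaker (117836456 to 117836682, score 150.48, rank 2090) lay 1198 to 1424 bp downstream. Both of the other starts listed for the gene had no peak on their promoters. The promoter of the upstream start is shown as a start under a CEBPG peak whose promoter held none of the searched letters. Capitals here mark the 73 bases under the peak, none of the 6 motifs searched matched in the 300 bases, and most of the peak lies beyond them.

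Slc6a9 promoter of the upstream start (plus strand, chr4:117835008-117835307): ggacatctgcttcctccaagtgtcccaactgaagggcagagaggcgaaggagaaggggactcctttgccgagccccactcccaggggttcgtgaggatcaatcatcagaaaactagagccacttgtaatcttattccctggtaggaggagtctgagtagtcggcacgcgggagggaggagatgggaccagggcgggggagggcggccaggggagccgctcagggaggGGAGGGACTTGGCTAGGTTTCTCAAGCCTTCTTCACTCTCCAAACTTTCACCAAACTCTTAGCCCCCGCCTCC

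The SLC36 genes had weak peaks away from their starts. Slc36a1 (PAT1, a proton-coupled carrier of small neutral amino acids on lysosomes and the plasma membrane) had a CEBPG peak of 49.8 (chromosome 11, 55212577 to 55212675), 8237 to 8335 bp downstream of the listed start. Slc36a4 (PAT4, a carrier of proline and tryptophan) had one of 43.93 (chromosome 9, 15742177 to 15742296), 92 bp inside the far end of the gene, and 66.7% of the CEBPG list scored at least as high. Neither gene had an ATF4 peak, and the nearest were 1154 kb and 165 kb away. These peaks were 99 bp and 120 bp wide, narrower than the median of the list (131 bp), whereas the 6 transporter peaks scoring over 100 were 227 to 771 bp wide.

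**Figure D3:**
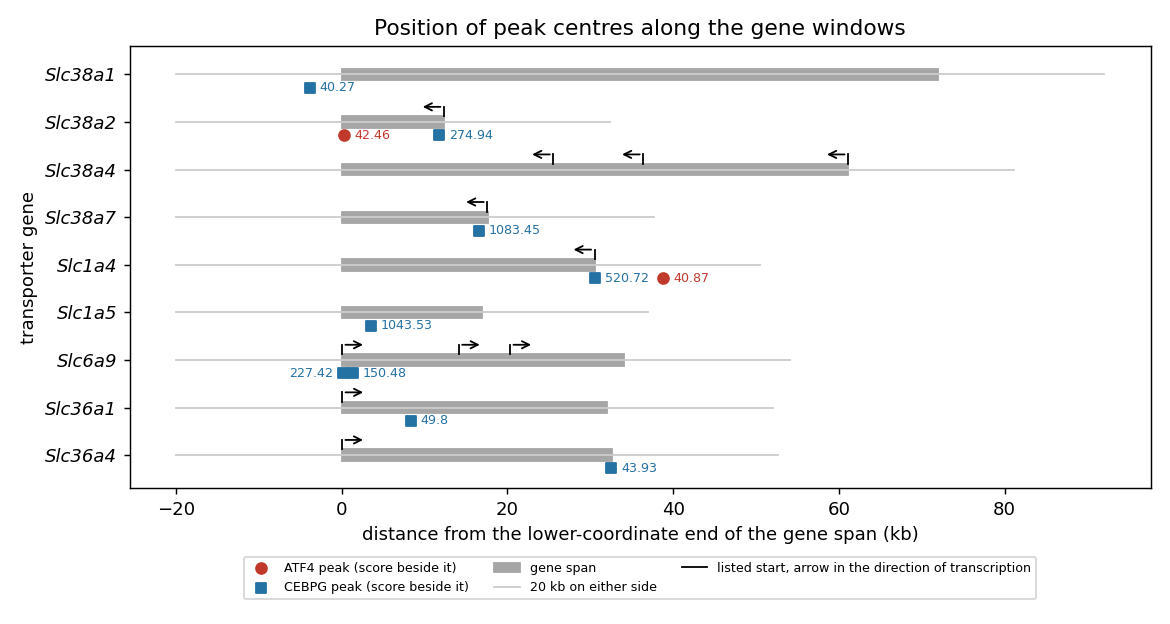
Peak centres (ATF4 circles, CEBPG squares, with their scores) along the window of each transporter gene, as the distance in kb from the lower-coordinate end of its span (horizontal axis). Grey boxes are gene spans and arrows the listed starts; CEBPG peaks covered a start at Slc1a4 and Slc6a9 and began 371 and 672 bp past it at Slc38a2 and Slc38a7, while those of Slc36a1 and Slc36a4 lay farther away.

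Where a start was listed, the CEBPG peaks of 200 or more had their nearest edge within 1 kb of it. They covered it at Slc1a4 and Slc6a9 and lay downstream of it at Slc38a2 and Slc38a7. The Slc38a7 peak ran from 672 to 1442 bp, with its centre at 1057 bp, so it was within 1 kb by its edge only. All genes were counted by the nearest edge. Starts were listed for 7 of the 9 genes (all but Slc38a1 and Slc1a5). A CEBPG peak lay within 1 kb of a listed start at 4 of these 7, against 4.37% of the 17492 protein-coding genes with a listed start. All 4 had a peak of 200 or more there, which 0.926% of those genes had. Strong CEBPG peaks near genes usually lie elsewhere. Of the 1126 genes with a listed start and a CEBPG peak of 200 or more in the window, 14.4% had it within 1 kb of a start, against 4 of 4 transporters. Slc1a5 is not among these 4, since no start was listed for it. Its CEBPG peak of 1043.53 lay 3231 bp from the lower-coordinate end of its span and 13226 bp from the higher one. ATF4 peaks lay within 1 kb of a start at 0 of the 7 transporters and 0.595% of all genes with a listed start.

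The matches to the other motifs at the transporters did not fall on peaks. Among the promoters searched, only those of Slc1a4 and of the upstream Slc6a9 start overlapped a peak of either factor. At the other promoters a match could not have fallen on a peak. The C/EBP-ATF hybrid letters TGACGCAA occurred once, 110 to 103 bp upstream of an internal start of Slc38a4, the gene with no peak. This sequence is shown as the contrast to Slc1a4, with the match in capitals.

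Slc38a4 promoter of an internal start (minus strand, chr15:97031164-97031463): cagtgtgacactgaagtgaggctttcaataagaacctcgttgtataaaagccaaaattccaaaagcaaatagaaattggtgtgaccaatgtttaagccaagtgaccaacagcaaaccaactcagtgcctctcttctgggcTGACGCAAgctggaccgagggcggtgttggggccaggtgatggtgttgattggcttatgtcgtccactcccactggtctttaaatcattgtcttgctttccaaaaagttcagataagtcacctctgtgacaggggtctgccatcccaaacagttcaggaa

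The hybrid letters were in 0.49% of all promoters and in 12% of those under a CEBPG peak, and 30.4% of the promoters that hold them were overlapped by CEBPG. The looser C/EBP letters TTGCNNAA matched at a Slc6a9 start 14.1 kb inside the gene and at Slc36a1 (10.8% of all promoters), and the AP-1 letters TGANTCA at Slc38a7 (7.81%), each in a promoter that no CEBPG peak overlapped. The cyclic AMP response element TGACGTCA (1.79%) and the C/EBP palindrome TTGCGCAA (0.183%) matched in none of the 11 promoters listed for the 7 genes. The palindrome is also 1 form of the looser C/EBP letters. The listed promoters of Slc38a2 and Slc36a4 held none of the 6 motifs, and at Slc38a2 the CEBPG peak begins 371 bp past the start, beyond the 300 bases searched.

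The absence of overlap with ATF4 was set beside the score of the CEBPG peaks, since strong CEBPG peaks overlap ATF4 peaks more often. In the whole CEBPG list 41.7% of the 72 peaks scoring 1000 to 1200 overlapped an ATF4 peak, and neither of the 2 transporter peaks in this class (Slc38a7 and Slc1a5) did. The share was 23.3% of the 365 peaks scoring 500 to 1000, where Slc1a4 lies, and 5.15% of the 524 peaks scoring 200 to 300, where Slc38a2 and the stronger Slc6a9 peak lie. Counted by gene, 14.4% of the 1168 genes with a top CEBPG score between 200 and 1083.45 had an overlapping pair in the window, against 0 of 5 transporters. With 5 genes this count lies close to that share, so it marks no difference from other genes with CEBPG peaks of such scores. The score classes were chosen after the values were seen.

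**Figure D4:**
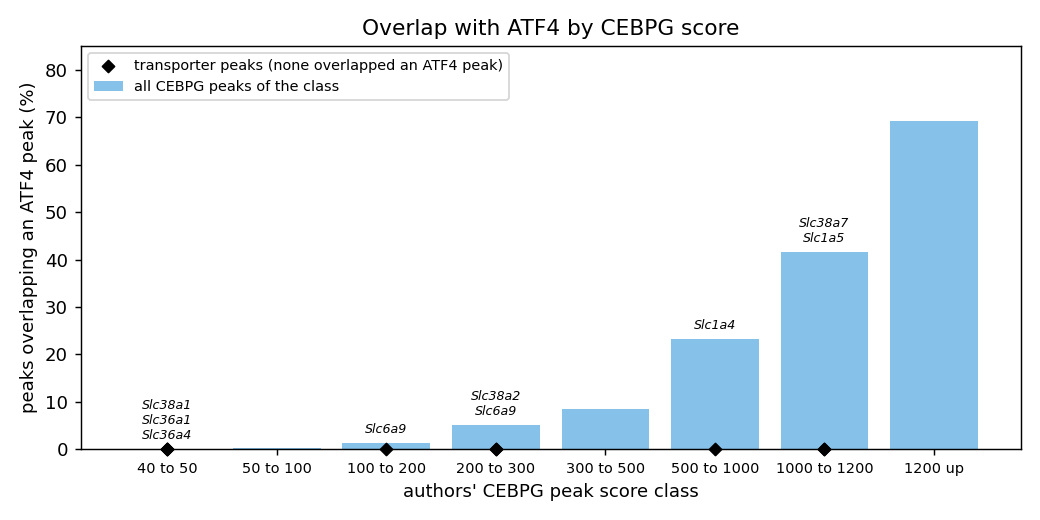
Percentage of CEBPG peaks that overlap an ATF4 peak (vertical axis) by CEBPG score class (horizontal axis), over the whole list as bars. Gene names and diamonds at 0 mark the classes of the 9 transporter peaks, none of which overlapped ATF4. The whole-list share was 41.7% in the class of Slc38a7 and Slc1a5 and 23.3% in that of Slc1a4. It was 5.15% in the class of Slc38a2 and the stronger Slc6a9 peak, and 1.38% in that of the weaker Slc6a9 peak. For Slc38a1, Slc36a1 and Slc36a4 it was 0.118%. Counted by gene, 0 of 5 transporters lies close to the share of 14.4%.

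Sites held by both factors are sparse near most genes. The median distance from the gene span to an overlapping pair was 3149 kb for the 9 transporters, against 1965 kb (quartiles 738 and 4652 kb) for the 21631 protein-coding genes on chromosomes with such a pair. The closest was the pair 190 kb from Slc1a5, and at the other genes the distance ran from 1190 kb at Slc1a4 to 8234 kb at Slc6a9. For Slc38a7 it was 1450 kb, at a pair nearest Herpud1, a gene of endoplasmic reticulum protein degradation (ATF4 score 68.02, CEBPG score 2203.73). Close to the 20 kb limit itself there was little to gain or lose. The farthest peaks inside were 8204 bp (ATF4, Slc1a4) and 3762 bp (CEBPG, Slc38a1) from the span. The first outside were a CEBPG peak of 260.24 that lies 43.3 kb upstream of Slc38a2 and, for Slc38a1, the ATF4 peak of Slc38a2 at 44.2 kb.

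Related transporter genes were counted in the same way. Of 26 further amino acid transporters of the SLC1, SLC6, SLC16, SLC36, SLC38 and SLC43 families, 11 had a CEBPG peak (42.3%). This was near the share of all genes. A CEBPG peak of 200 or more was at 1 of the 26 (3.85%, against 6.52% of all genes), and 1 had an ATF4 peak. The strong one was at Slc1a7 (1997.25), a glutamate transporter gene, followed by Slc16a10 (187.32), Slc1a3 (117.72) and Slc1a2 (68.33). The ATF4 peak was at Slc1a2 (46.13). Strong CEBPG peaks were thus frequent at the 9 genes described here and not across these families. Below, the neutral transporters are these 9 genes alone. Of 13 genes of the LAT and CAT families, which carry large neutral and cationic amino acids and cystine, 5 had an ATF4 peak, 7 a CEBPG peak and 3 an overlapping pair, against 2, 8 and 0 of the 9 neutral transporters. A CEBPG peak of 200 or more was at 5 of these 13 (38.5%), against 5 of the 9 neutral transporters (55.6%) and 6.52% of all genes, so strong CEBPG peaks were found in both lists. Per Mb of window the LAT and CAT genes held 4.74 ATF4 and 19.0 CEBPG peaks, against 2.99 and 13.4 for the neutral transporters. The ATF4 values rest on 5 and 2 peaks. The overlapping pairs were at Slc7a5 (top scores 230.21 for ATF4 and 3100 for CEBPG), Slc7a1 (202.03 and 1503.93) and Slc7a11 (153.06 and 3100). Slc7a4 (55.78) and Slc3a1 (50.89) had an ATF4 peak without CEBPG, and Slc3a2 had a CEBPG peak of 2703.73 without ATF4. Every ATF4 score among the LAT and CAT genes was thus above both ATF4 scores of the neutral transporters. No test of the difference between the lists was run.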

How the data were processed

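ATF4 and CEBPG peaks were mapped by ChIP-seq with single-end reads of 36 bp, 1 library each. Tools named in the submitters' processing notes are BWA, Trimmomatic, HOMER and MACS 1.4.2, with the build mm10 and no settings. The sources used here do not give whether GFP served as background. The score is the number at the end of each deposited peak name (column 4). No header gives its scale, which resembles the p-value based score of MACS. No counts were used, so depth is unknown.

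Gene spans came from a RefSeq table of GRCm38.p6, the mm10 build, and all 9 genes and both comparison lists matched. Positions are 1-based. Overlap means at least 1 bp, and a distance is the gap between the nearest edges. Starts, strands and sequences came from RefSeq promoters, without exons, so introns could not be assigned. Motifs were matched exactly on both strands, in promoters and not in peaks, for want of a genome sequence here. The 9 genes, the lists and the alternatives were chosen with earlier results of these data known. All 9 genes were described, and other transporters were named when they had an ATF4 peak or were among the 4 highest CEBPG scores of their list. Counting of overlaps, windows and motifs was tested on simulated data. Python 3.11.15, pandas 2.3.3 and numpy 2.4.6 were used.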

Additional observations from a re-analysis of the deposited data

How the results depend on the processing

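Of 32 alternatives to the counts above, 22 left the count within 1.5 times its value. Many of these 22 were overlap counts that were 0 to begin with, which stricter settings cannot change. The number of transporters with an ATF4 peak was 1 within the gene span alone or 5 kb, 3 within 50 kb (the third being Slc38a1, through the peak of Slc38a2), and 0 at a score minimum of 50 or of 100. The number of ATF4 peaks in the windows was likewise 1 within 5 kb and 0 at either score minimum. The number of transporters with a CEBPG peak was 5 at a score minimum of 50 or of 100, and 7 or 8 in the other settings. With 1 mismatch allowed, 8 of 11 transporter promoters held a CARE-like match, as did 50.7% of all promoters. No transporter had an overlapping pair under any window, score minimum, width limit or overlap rule tried. Most of these settings only remove peaks or pairs, so from 0 they could return nothing else. The wider window of 50 kb could not add one either, since the closest overlapping pair lay 190 kb from a gene span, at Slc1a5. No paired analysis was possible because each antibody had 1 library. Without replicates or depths, a missing ATF4 peak means only that none was listed.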

Other observations

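The promoters of the transporters with a CEBPG peak within 1 kb of a start ranged widely in base composition. The peaks overlapped the promoter at Slc1a4 and Slc6a9 and lay downstream of it at Slc38a2 and Slc38a7. Of the 300 bases around the listed start, G and C made up 73.0% at Slc38a2, 65.0% at Slc1a4, 59.0% at the upstream start of Slc6a9 and 50.3% at Slc38a7, against a median of 52.7% over all promoters. CpG dinucleotides numbered 41, 21, 10 and 10 at these starts. Slc36a4, with no peak near its start, had 69.0% and 32 CpG dinucleotides. Per length of window, the 9 transporters held 2.99 ATF4 peaks and 13.4 CEBPG peaks per Mb, against 0.98 and 9.96 over the windows of all protein-coding genes. The ATF4 value of the transporters rests on 2 peaks, both scoring under 50. The CEBPG peak of 260.24 beyond the Slc38a2 window (chromosome 15, 96743072 to 96743674) lay between Slc38a2 and Slc38a4, with Slc38a2 as the nearest protein-coding gene.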
